A study of Homo sapiens with 17 samples.

Results

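The 7 genes described here encode the FOS and JUN proteins: FOS, FOSB, FOSL1 and FOSL2 in the Fos family, and JUN, JUNB and JUND in the Jun family. They were chosen by family membership and are 7 of the 19974 protein-coding genes on chromosomes 1 to 22 and X. For each gene, all peaks of FOXA1 and FOSL2 lying inside it or within 50 kb of either end were collected from every list, together with the share of the gene covered by the repressive marks H3K9me3 and H3K27me3. In GRCh38.p14, FOS lies at chr14:75278828-75282230, FOSB at chr19:45467996-45475179, FOSL1 at chr11:65892049-65900545 and FOSL2 at chr2:28392858-28417317. JUN lies at chr1:58780791-58784047, JUNB at chr19:12791486-12793315 and JUND at chr19:18279694-18281622. JUN and JUND are transcribed along the minus strand, and FOS, FOSB, FOSL2 and JUNB along the plus strand.

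Fos and Jun proteins pair through leucine zippers to form AP-1, a dimer that binds the DNA sequence TGANTCA and its relatives. Jun proteins can pair with each other or with Fos proteins, whereas Fos proteins need a Jun partner to bind. Several of these genes are textbook immediate-early genes, switched on within minutes of growth or stress signals, and AP-1 is known to act on the promoters of some of its own subunits, of which JUN is the classic case.

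The data are chromatin immunoprecipitation with sequencing (ChIP-seq) peak lists from A549, an established human lung carcinoma line. An A549 line carrying A-Fos, integrated with piggyBac, gave FOSL2 and FOXA1 libraries after 48 h with 1 µg/mL doxycycline (Dox), which induces A-Fos, and without Dox. A-Fos is a dominant-negative Fos whose zipper takes up Jun proteins into dimers that do not bind DNA. Unmodified (WT) cells without treatment gave libraries of FOXA1, a forkhead protein that can bind closed chromatin in lung and other endoderm-derived cells, and of H3K9me3 and H3K27me3. Every group had 2 libraries, labelled as biological replicates. All FOSL2 and FOXA1 libraries that bear on Dox carry the A-Fos insertion, also those without Dox, and no Dox-treated cells lacking A-Fos were analysed here, so A-Fos and Dox itself cannot be told apart. The sources used here do not say whether the A-Fos line is a clone or a pool. FOSL2 was not profiled in WT cells, and the marks were not profiled in the A-Fos line, in the samples analysed here.

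On chromosomes 1 to 22 and X the FOSL2 lists held 1854 and 5274 peaks with Dox, against 45586 and 14842 without Dox. The FOXA1 lists held 11112 and 15065 peaks with Dox, 7633 and 13247 without Dox, and 49448 and 80318 in WT cells. The H3K9me3 lists held 305084 and 201740 peaks and the H3K27me3 lists 190938 and 228427. The lists hold no read counts, so the depth behind a peak is unknown and depth and list length cannot be told apart. Each peak carries the authors' own fold enrichment over background, used here only to describe and rank peaks within a list.

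Promoters of 6 of the 7 genes, 250 bases before to 50 after the start of transcription, were matched in RefSeq (GRCh38.p14) and searched on both strands. FOSL2 is shown because a FOSL2 peak lay on it in both libraries without Dox, JUNB because a FOXA1 peak lay on it in both WT libraries, and JUN because it is the textbook self-regulated AP-1 promoter and carried neither. Capitals mark TGACTCA in the FOSL2 promoter, a match to the AP-1 motif given above. In the JUNB promoter they mark the forkhead motif TGTTTAC. In the JUN promoter they mark TGACATCA, the variant AP-1 sequence known there.
FOSL2 promoter, chr2:28392608-28392907, plus strand: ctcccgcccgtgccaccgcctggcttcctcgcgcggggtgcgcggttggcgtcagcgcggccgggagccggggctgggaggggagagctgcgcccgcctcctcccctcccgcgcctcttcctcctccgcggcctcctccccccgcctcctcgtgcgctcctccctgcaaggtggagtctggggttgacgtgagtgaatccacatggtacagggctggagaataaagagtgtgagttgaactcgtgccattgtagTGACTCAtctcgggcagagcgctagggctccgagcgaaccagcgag
JUNB promoter, chr19:12791236-12791535, plus strand: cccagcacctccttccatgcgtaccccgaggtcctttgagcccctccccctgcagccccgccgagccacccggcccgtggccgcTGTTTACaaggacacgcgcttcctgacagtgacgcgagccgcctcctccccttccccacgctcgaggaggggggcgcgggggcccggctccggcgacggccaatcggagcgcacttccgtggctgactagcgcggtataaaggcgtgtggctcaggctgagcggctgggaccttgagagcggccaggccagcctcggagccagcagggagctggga
JUN promoter, chr1:58783998-58784297, minus strand: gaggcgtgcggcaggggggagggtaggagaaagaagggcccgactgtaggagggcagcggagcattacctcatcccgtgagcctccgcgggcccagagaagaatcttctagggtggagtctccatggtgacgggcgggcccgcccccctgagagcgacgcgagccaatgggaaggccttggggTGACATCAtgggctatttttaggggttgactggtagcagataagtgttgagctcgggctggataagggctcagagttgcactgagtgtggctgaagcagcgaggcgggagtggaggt

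The AP-1 match in the FOSL2 promoter spanned bases 5 to 11 after the start site, chr2:28392862-28392868. The motif TGANTCA occurred in 69.0% of the 310 promoters overlapped by FOSL2 peaks in both libraries without Dox, beside 7.68% of all 34961 RefSeq promoters of the same length. The forkhead match in the JUNB promoter spanned bases 166 to 160 before the start site, chr19:12791320-12791326. The motif TGTTTAC occurred in 14.6% of the 2002 promoters overlapped by FOXA1 peaks in both WT libraries, beside 3.42% of all promoters. The TGACATCA in the JUN promoter spanned bases 67 to 60 before the start site, chr1:58784107-58784114, and this sequence occurred in 2.61% of all promoters. The JUND promoter held the palindrome TGACGTCA, the cyclic AMP response element, at bases 200 to 193 before its start site (1.85% of all promoters). No motif searched overlapped another in these promoters, and a match of letters is not by itself a binding site. The FOS and FOSB promoters held none of these 4 motifs, nor the other forkhead motif searched, TATTTAC, found in 2.67% of all promoters. They also held no CArG box, the serum response factor motif, by the pattern used, which 1.3% of all promoters held. Only the 250 bases before and 50 after the start were searched, so a CArG box farther upstream would be missed.

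With Dox no FOSL2 peak was called near any of the 7 genes, whereas without Dox FOSL2 peaks lay near 6 of them. Summed over the genes there were 0 and 0 FOSL2 peaks in the 2 libraries with Dox, against 25 and 6 in the 2 libraries without Dox (0 against 15.5 ± 13.4, mean and SD, n = 2 libraries each). Both Dox libraries lay below both libraries without Dox. Per 1000 peaks in their lists, the libraries without Dox had 0.548 and 0.404 peaks near the 7 genes. With Dox, 0 of the 7 genes had a region in both libraries, beside 0.255% of all protein-coding genes. Over all protein-coding genes, 19.6% had a FOSL2 peak within 50 kb in at least 1 Dox library and 79.7% had a peak in at least 1 library without Dox.

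FOSB, which forms AP-1 dimers with Jun proteins, had 0 and 0 FOSL2 peaks with Dox and 7 and 2 without Dox. FOSL1, which encodes FRA1 and has no transactivation domain of the FOS type, had 0 and 0 with Dox and 3 and 1 without Dox. FOSL2, the gene of the immunoprecipitated protein FRA2, had 0 and 0 with Dox and 5 and 2 without Dox. These 3 Fos family genes had fewer peaks in each Dox library than in each library without Dox. FOS itself, the founding immediate-early gene of the family, had no FOSL2 peak within 50 kb in any of the 4 libraries. JUN, the gene of the main A-Fos partner family, had 0 and 0 with Dox and 5 and 1 without Dox. JUNB had 0 and 0 with Dox and 1 and 0 without Dox, and JUND had 0 and 0 with Dox and 4 and 0 without Dox. In JUNB and JUND the groups therefore overlapped at 0.

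Peak numbers were thus lower in both Dox libraries than in both libraries without Dox for 4 of the 7 genes (FOSB, FOSL1, FOSL2 and JUN), beside 37.1% of all protein-coding genes, and higher for 0, beside 0.11%. The differences, Dox minus no Dox, were -4.5 peaks at FOSB, -3.5 at FOSL2, -3.0 at JUN and -2.0 at FOSL1. Each gave p = 0.33 in a two-sided exact permutation test over the 4 libraries, the smallest value that 2 libraries against 2 allow, or 0.583 after Benjamini-Hochberg adjustment over the 7 genes, so no gene passed a threshold of 0.05. The median was 4 peaks over the members and 2 over all genes in the first library without Dox, and 1 and 0 in the second. When every list was reduced to its 1854 strongest peaks, 0 genes had separate groups.

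**Figure D1:**
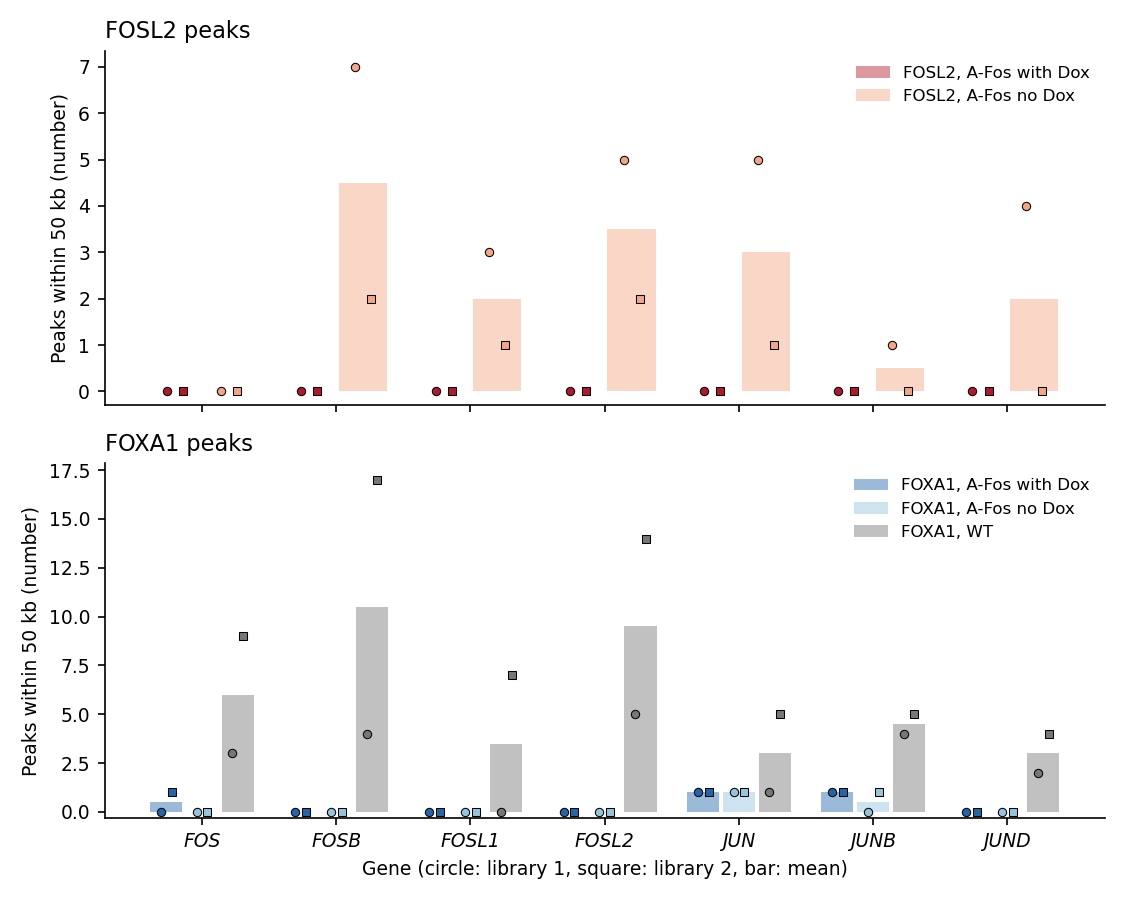
Number of FOSL2 peaks (upper panel) and FOXA1 peaks (lower panel) within 50 kb of each FOS and JUN family gene, by library (circle, library 1; square, library 2) with the mean of both as a bar. FOSL2 peaks number 0 at every gene with Dox and reach 7 at FOSB without Dox, while FOXA1 peaks number 0 or 1 at each gene in the A-Fos line and reach 17 at FOSB in WT cells.

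Merged over the 4 lists, the FOSL2 peaks formed 25 regions near the 6 genes. Of these, 6 were called in both libraries without Dox, and all 6 were absent from both Dox lists. The other 19 were called only in the first library without Dox, whose list was the longer. The 6 regions lay near 4 of the 7 genes, beside 38.9% of all protein-coding genes with such a region and 38.6% with one absent from both Dox lists. Across the series 10030 of 10191 regions called in both libraries without Dox, or 98.4%, were absent from both Dox lists, so the members' 6 of 6 is near the share over all regions. None of the members' regions was called in all 4 libraries, beside 0.0981% of the regions called in both libraries without Dox and 0.0401% of genes with such a region nearby. None was called in both Dox libraries alone, beside 0.115% of genes. With the second library without Dox left out the count of absent regions was 25.

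At the FOSL2 gene, 1 of the regions lay on its own start site, at chr2:28392658-28393048. Its fold enrichment was 9.22 and 3.93 in the 2 libraries without Dox, at percentile 66.1 and 37.9 of its list. The summits lay 12 and 8 bp from the start site, and 5 and 1 bp from the middle of the TGACTCA shown above. The same stretch was also called for FOXA1 in both WT libraries, with enrichments of 4.54 and 6.38 and summits 65 and 99 bp from that TGACTCA. Of the 7 genes, FOSL2 alone (1 of 7) had such a FOSL2 region within 1 kb of a gene end, a state found at 1.93% of all protein-coding genes. In the first library without Dox, the strongest FOSL2 peak near any member lay 28.5 kb downstream of the same gene, at chr2:28445811-28446314. Its enrichments were 21.3 and 4.2 in the 2 libraries (percentiles 89.4 and 45.1). No other protein-coding gene was nearer to it than FOSL2. In the second library the strongest peak was the one near FOSL1, with an enrichment of 4.9.

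FOSB had a FOSL2 region on each side. The upstream region, at chr19:45455692-45456187, lay 11.8 kb before the gene and 4.14 kb from ERCC1, which encodes a subunit of a DNA repair nuclease, and had enrichments of 8.18 and 3.47. The downstream region, at chr19:45478701-45479245, lay 3.52 kb past the gene end and had enrichments of 4.05 and 3.2, at percentiles 23.6 and 14.8. In WT cells both overlapped FOXA1 peaks of the second library, with enrichments of 4.33 and 4.18. In the first library without Dox 5 more peaks lay in the window, the strongest inside ERCC1 at 43.4 kb before FOSB with an enrichment of 12.6.

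The FOSL1 region, at chr11:65915619-65916150, lay 15.1 kb from the gene on the side of higher coordinates and 0.66 kb from C11orf68. Its enrichments were 12.6 and 4.9, at percentiles 76.9 and 57.0, which in the second library was the highest percentile among the 6 regions. The nearest FOXA1 region called in both WT libraries was 167 kb away. A peak inside FOSL1 itself, 1.03 kb from the end at higher coordinates, was called in the first library without Dox with an enrichment of 4.32.

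The JUN region, at chr1:58755340-58755888, lay 24.9 kb downstream of the gene and had enrichments of 11.8 and 2.83. The second value stood at percentile 5.24 of its list with a −log10 q of 2.97, so that this call was close to the lower end of the list. No FOSL2 or FOXA1 peak of any list lay on the JUN promoter shown above. In the first library without Dox, JUN had further FOSL2 peaks downstream and, 39.4 kb upstream, a peak with an enrichment of 13.0. JUNB, a Jun protein known as a weaker activator than JUN, had a lone peak 8.19 kb upstream with an enrichment of 3.53, inside the interval of HOOK2. JUND, the Jun gene known for steady expression in resting cells, had peaks of 12.4 at 4.41 kb downstream and 11.4 at 19.4 kb upstream. Both were called in the first library without Dox alone and lay nearer to other genes, 0.358 kb from IQCN and 4.77 kb from LSM4. The peak 48.1 kb downstream of JUND, inside PDE4C, was the only one of the 25 FOSL2 regions that overlapped H3K27me3 in both WT libraries, and 0 of the 25 overlapped H3K9me3 in either. Of the 50136 FOSL2 regions of the series called without Dox, 7.61% overlapped H3K27me3 in both libraries and 11.9% overlapped H3K9me3 in at least 1.

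**Figure D2:**
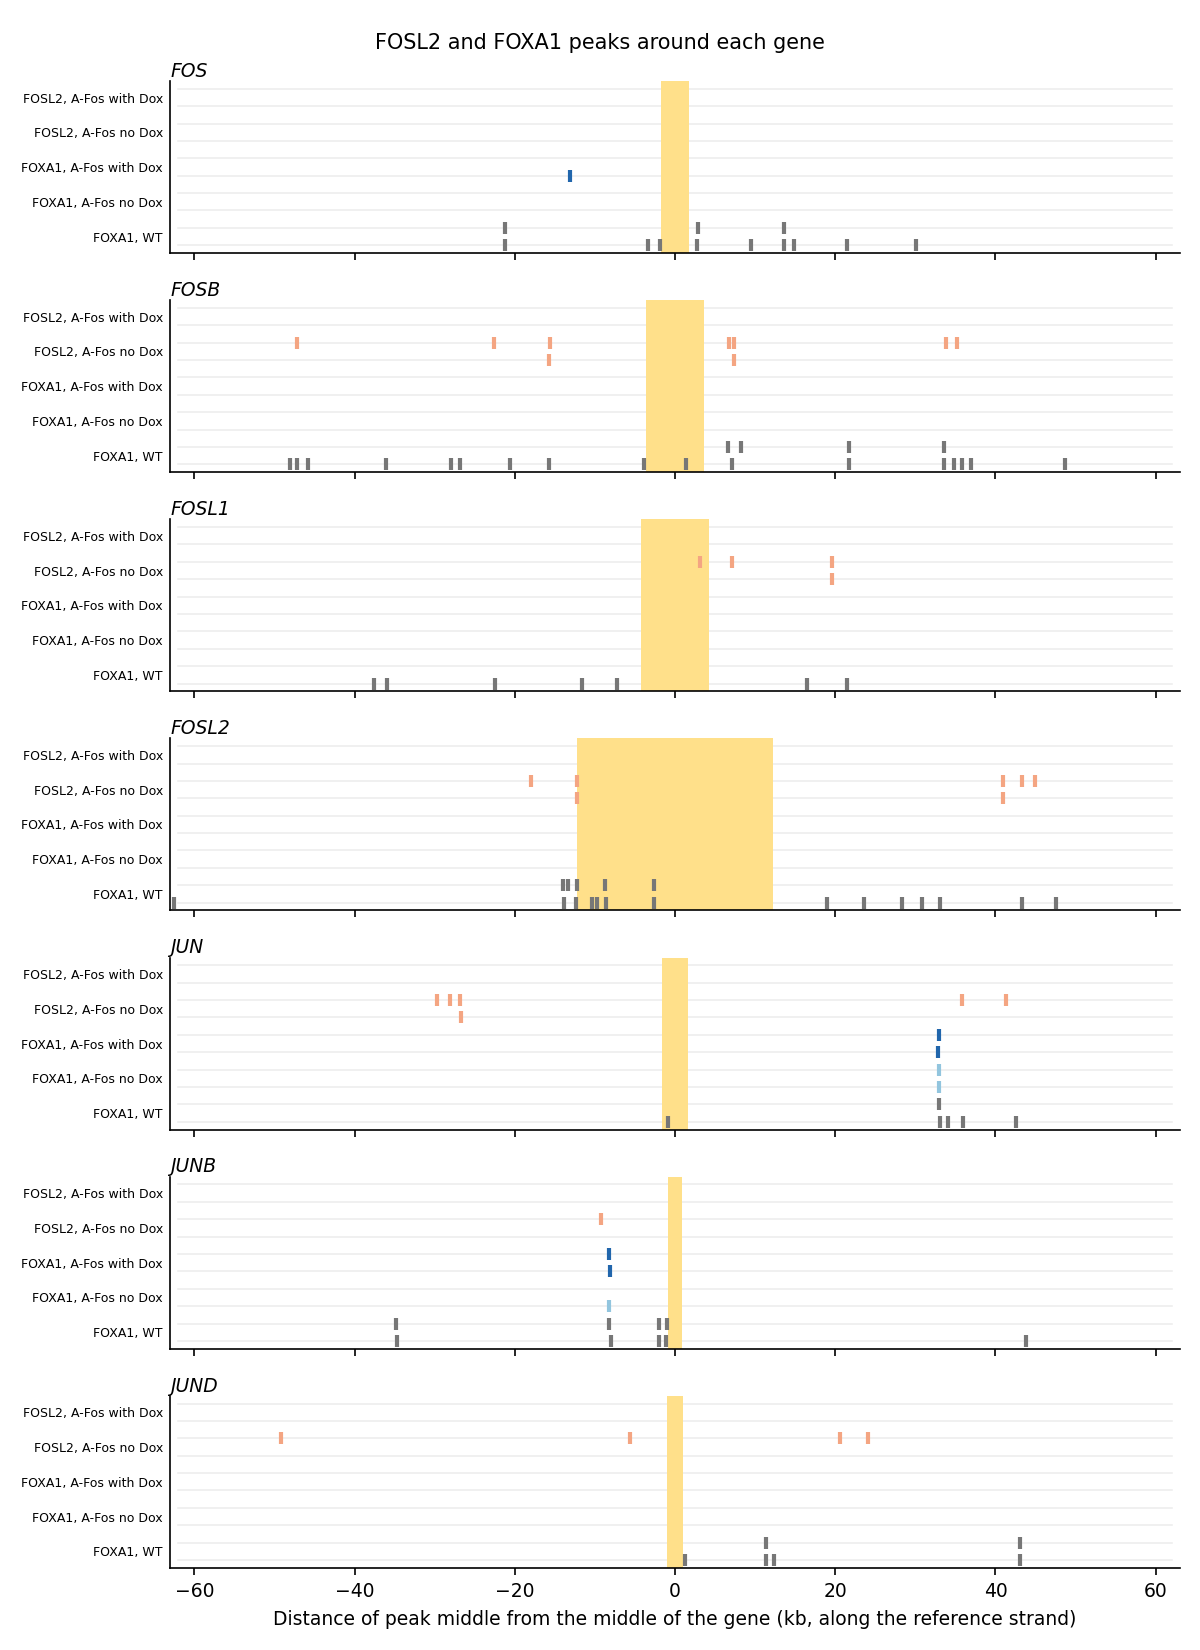
Position of each FOSL2 and FOXA1 peak within 50 kb of the 7 genes, in kb from the middle of the gene along the reference strand, with the gene as a yellow band and, in each group, library 1 as the upper line and library 2 as the lower. The FOSL2 lines with Dox are empty at all 7 genes, and the FOXA1 peak upstream of JUN stands in all 6 FOXA1 libraries.

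FOXA1 overlapped these FOSL2 regions in part. Of the 6 regions called in both libraries without Dox, 1 overlapped FOXA1 peaks in both WT libraries, the FOSL2 promoter, and 3, or 50.0%, in at least 1 WT library. The shares over all 10191 such regions of the series were 45.5% and 72.5%. Of the 19 regions called in the first library alone, 6, or 31.6%, overlapped a WT FOXA1 peak, beside 32.1% of the 39945 regions called in 1 library. None of the 25 (0 of 6 and 0 of 19) overlapped a FOXA1 peak of the A-Fos line, with or without Dox, beside 29.6% and 11.2% of the same 2 kinds of region over the series.

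FOXA1 peaks were few in the A-Fos line, both with Dox and without, near the FOS and JUN genes and over all genes. The median was 0 peaks over the members and over all genes in each of the 4 lists. The means over the members were 0.286 and 0.429 with Dox and 0.143 and 0.286 without Dox. Over all genes they were 0.64 and 0.763 with Dox and 0.427 and 0.746 without Dox. Summed over the 7 genes there were 2 and 3 FOXA1 peaks with Dox, against 1 and 2 without Dox (2.5 ± 0.707 against 1.5 ± 0.707, mean and SD, n = 2 libraries each). The groups met at 2 peaks. At least 1 Dox library had a FOXA1 peak near 3 genes (FOS, JUN and JUNB), beside 45.0% of all protein-coding genes, and at least 1 library without Dox near 2 genes (JUN and JUNB), beside 40.0%. FOXA1 peak numbers were lower in both Dox libraries than in both without Dox at 0 of the 7 genes, beside 4.45% of all genes, and higher at 0, beside 6.76%. The two-sided exact permutation test gave p = 1 at every member, which with 2 libraries a group does not show that the numbers were alike.

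The FOXA1 peaks of the A-Fos line formed 3 regions. The region upstream of JUN, at chr1:58815129-58815606 and 31.1 kb from the gene, was called in all 4 libraries. Its fold enrichments were 10.6 and 6.91 with Dox, 5.1 and 5.01 without Dox, and 41.9 and 86.4 in WT cells. It stood at percentiles 89.9 and 71.9 of the Dox lists, 39.5 and 31.4 of the lists without Dox, and 98.1 and 98.7 of the WT lists, and lists of different length cannot be set against each other by rank. No other protein-coding gene was nearer. A region kept in all 4 libraries lay within 50 kb of 14.6% of all protein-coding genes, and 53.3% of the 6012 FOXA1 regions called in both libraries without Dox were kept.

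A second region, at chr19:12784048-12784405, lay 7.08 kb upstream of JUNB within the interval of HOOK2, which encodes a linker of organelles to microtubules. It was called in both Dox libraries (4.55 and 7.41) and in the second library without Dox (10.8), and in WT cells it had enrichments of 15.8 and 88.2. It was not called in the first library without Dox, the shortest FOXA1 list, and without that library 2 of the regions were kept in place of 1. The third region lay 11.2 kb upstream of FOS, at chr14:75267238-75267600, and was called in the second Dox library alone, with an enrichment of 4.9. It overlapped H3K27me3 in 1 WT library and had no FOXA1 peak in WT cells. No FOXA1 region near the 7 genes was called in both libraries without Dox and neither with Dox, beside 8.97% of all genes with such a region, and none the other way round, beside 6.92%. With the first Dox library left out, or the second library without Dox, 1 region was called with Dox alone.

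Uninduced A-Fos cells had 1 and 2 FOXA1 peaks near the 7 genes, against 19 and 61 in WT cells (1.5 ± 0.707 against 40.0 ± 29.7, mean and SD, n = 2 libraries each). The 2 pairs of lists differed in length in the same direction. The JUN region was the only region called in both libraries of each, and the share of all genes with such a region was not computed. Whatever the WT calls, a FOXA1 region in both uninduced libraries lay near 1 of the 7 genes (JUN), beside 22.6% of all genes. FOSB, FOSL1, FOSL2 and JUND had no FOXA1 peak in any A-Fos library, with or without Dox.

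In WT cells FOXA1 peaks formed 62 regions near the 7 genes, and 18 of them were called in both libraries. They lay near 6 of the 7 genes, beside 71.6% of all protein-coding genes, and all 7 genes had a peak in at least 1 WT library, beside 89.0%. Leaving out the first WT library gave 61 regions and leaving out the second gave 19. The median number of peaks was 3 over the members and 2 over all genes in the first library, and 7 and 4 in the second. By gene, FOS had 3 and 9 peaks, FOSB 4 and 17, FOSL1 0 and 7, FOSL2 5 and 14, JUN 1 and 5, JUNB 4 and 5, and JUND 2 and 4. The second library had more peaks at every member, and it also had the longer list.

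In WT cells a FOXA1 region lay on the JUNB promoter, at chr19:12790999-12791529, and also reached the interval of HOOK2. Its fold enrichments were 12.8 and 32.8, at percentiles 86.3 and 94.0 of the lists, and the summits lay 4 and 2 bp from the middle of the TGTTTAC shown above. JUNB and FOSL2 were the members whose promoters were overlapped in both WT libraries, a state of 5.73% of all promoters. The promoters of FOS, FOSB and JUND were overlapped in the second library alone, and that of JUN in neither. Within 1 kb of a gene end, FOS, FOSL2 and JUNB had a FOXA1 region called in both libraries, beside 13.4% of all protein-coding genes.

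FOS had FOXA1 regions 0.711 kb past its end, at chr14:75282941-75283649 with enrichments of 8.75 and 20.1, and 11.6 kb past its end, with 6.68 and 21.4. FOSB had its strongest 17.8 kb downstream in RTN2, which encodes a reticulon of the endoplasmic reticulum, with 9.0 and 24.9. FOSL2 had 5 regions, of which 2 lay inside the gene away from its start. The strongest of the 5 lay 49.9 kb upstream and 3.28 kb from BABAM2, with 15.7 and 24.0. Only the peak of the second library reached into the 50 kb window there. At JUND the strongest lay 10.2 kb upstream with 5.07 and 12.1. FOSL1 was the member with no FOXA1 region in both libraries, and its strongest peak in the second library had an enrichment of 8.26.

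**Figure D3:**
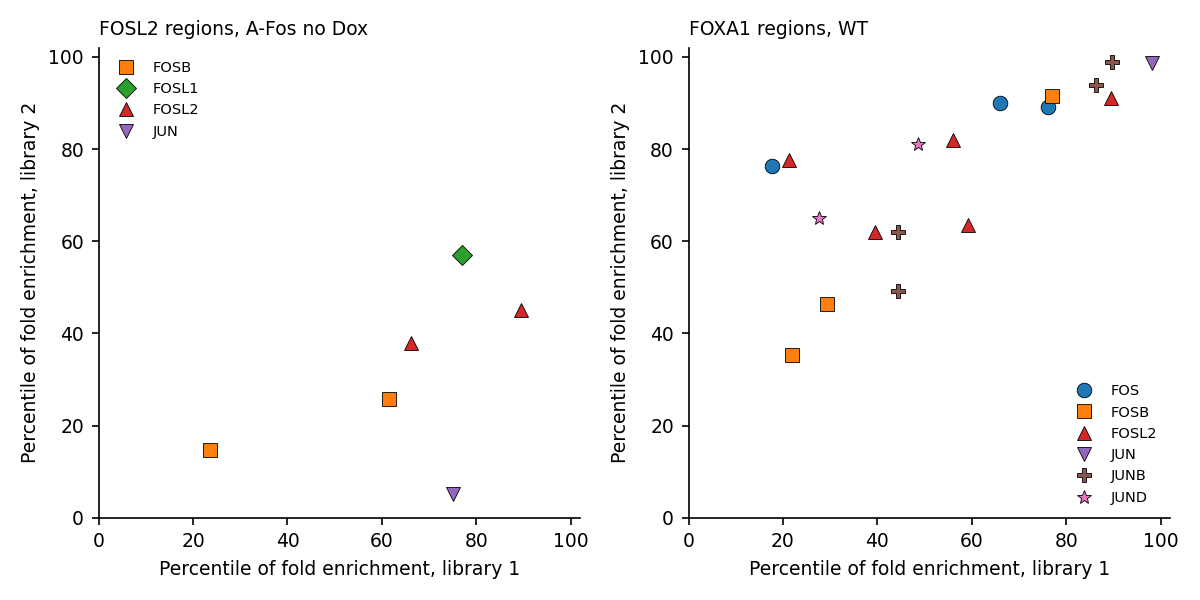
Percentile of each region's fold enrichment within the list of library 1 (x axis) and library 2 (y axis), for FOSL2 regions called in both libraries of the A-Fos line without Dox (left) and FOXA1 regions called in both WT libraries (right), by nearest family gene. The 6 FOSL2 regions lie between percentiles 23.6 and 89.4 in library 1 and between 5.24 and 57.0 in library 2, and the FOXA1 region upstream of JUN stands at 98.1 and 98.7.

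FOS and FOSB carried H3K27me3 on the gene, and none of the 7 members carried H3K9me3. H3K27me3, the mark set by Polycomb complexes, covered 54.1% and 56.5% of the FOS gene body and 62.4% and 68.9% of the FOSB gene body in the 2 WT libraries. The other 5 gene bodies and the 1 kb either side of their ends had 0% in both libraries. Over all genes the mean cover was 7.37% and 9.27%, which placed FOS at percentiles 95.4 and 94.2 and FOSB at 96.6 and 96.0. A gene body or end marked in both libraries was found at 2 of the 7 members, beside 33.3% of all protein-coding genes, and a gene body marked in both at the same 2 members, beside 30.2%. H3K9me3, the mark of constitutive heterochromatin, covered no base of any member's gene body or ends in either library (0 of 7), beside 40.7% of all genes marked in both libraries (39.0% on the gene body) and 51.6% in at least 1. Short genes offer fewer bases to a peak, and these genes span 1830 bp (JUNB) to 24460 bp (FOSL2).

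In FOS the H3K27me3 peak began 963 and 884 bp after the start site in the 2 libraries and ended 2804 bp after it in both, with enrichments of 5.8 and 3.42. In FOSB the first library had peaks at 369 to 758, 2627 to 5431 and 5899 to 9461 bp after the start site. The second library had peaks at 254 to 935 and 2915 to 9660 bp. Upstream of FOSB the nearest peaks ended 0.621 and 0.569 kb before the start site. The start sites of both genes thus lay in gaps between H3K27me3 peaks. The H3K27me3 lists held short peaks, with median lengths of 595 and 637 bp, so a marked domain can stand in them as several peaks. All 6 promoters matched in RefSeq were free of both marks in both libraries, where 9.25% of all promoters had H3K27me3 in both and 2.65% had H3K9me3. In the second WT library FOXA1 peaks lay on the start sites of FOS and FOSB, with enrichments of 4.1 and 10.4.

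**Figure D4:**
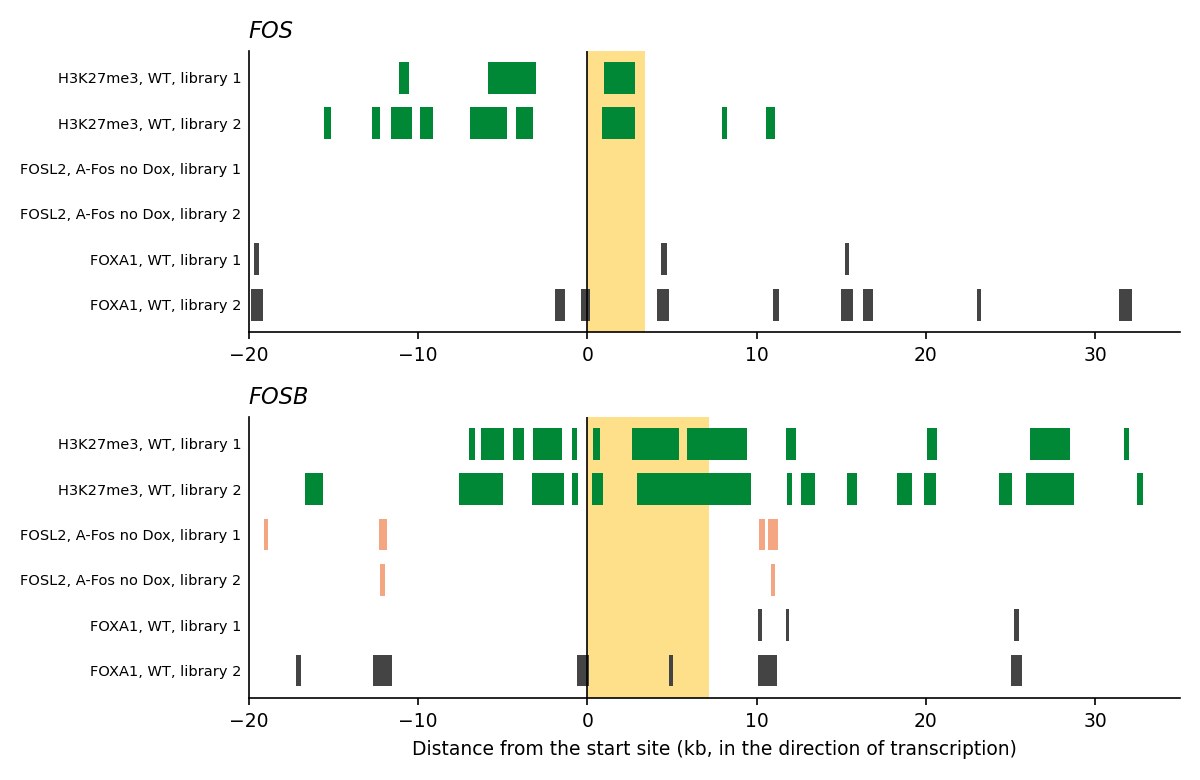
H3K27me3 and FOXA1 peaks of WT cells and FOSL2 peaks of A-Fos cells without Dox around FOS (upper panel) and FOSB (lower panel), by library, in kb from the start site (vertical line) with the gene as a yellow band. H3K27me3 covers the inner part of FOS from 963 and 884 bp after the start and most of FOSB, both start sites lie between peaks, and the FOSL2 lines are empty at FOS.

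Within 50 kb, H3K27me3 covered 14.2% and 19.9% of the window around FOSB, 13.0% and 14.2% around JUND, 10.9% and 15.7% around FOS, 8.3% and 9.6% around JUNB, and 5.08% and 6.68% around FOSL1. It covered 0.557% and 2.05% around FOSL2 and 0% around JUN in both libraries, whereas the median over all genes was 2.53% and 3.93%. The mean over all genes was higher than the median, at 7.88% and 10.2%. The nearest H3K27me3 peaks to JUND were 24.4 and 23.3 kb away and those to JUNB 36.1 and 36.2 kb away. The H3K27me3 peak with the highest enrichment in any member's window, 18.1 and 21.6, lay 19.0 and 18.8 kb past the end of FOSB. H3K9me3 covered the most around FOSL2, at 4.45% and 5.87%, and none around FOSB, with medians over all genes of 3.12% and 2.63%. The H3K9me3 means over all genes were 6.22% and 5.48%. In the other 5 windows its cover ranged between 0.643% and 1.95% in the first library and between 0.646% and 2.92% in the second.

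**Figure D5:**
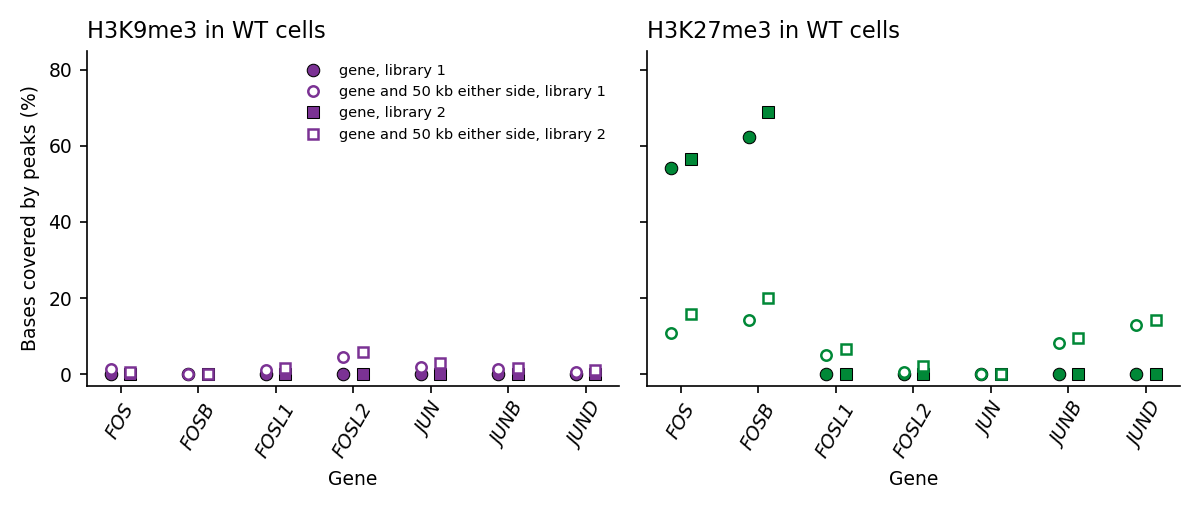
Percent of bases covered by H3K9me3 peaks (left) and H3K27me3 peaks (right) in WT cells, for the gene body (filled) and the gene with 50 kb either side (open), by library (circle, library 1; square, library 2). H3K27me3 covers 54.1% to 68.9% of the FOS and FOSB gene bodies and 0% of the other 5, and H3K9me3 covers 0% of all 7.

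FOSL2 regions were also present near partners and regulators of AP-1 outside the FOS and JUN families and near other rapidly induced genes. Of 20 partners and regulators, 7 had a FOSL2 region within 50 kb that both libraries without Dox shared. They were the zipper genes ATF3, BATF, BATF2 and BATF3, the kinase genes MAPK9 (JNK2) and MAP2K4, and the ETS factor gene ELK3. At ATF3, a stress-induced zipper protein that can pair with Jun, the strongest lay inside the gene with enrichments of 31.4 and 9.35. Of 20 other rapidly induced genes, 13 had such a region: KLF4, KLF6, IER5, DUSP1, DUSP4, DUSP5, CCN1, MCL1, SGK1, ZFP36, TRIB1, EGR2 and NR4A1. Both counts stand beside the 38.9% of all protein-coding genes given above. The strongest were those of KLF4, a zinc finger factor, with 46.3 and 12.7, and IER5 with 45.4 and 10.0. All 7 and 13 genes had at least 1 such region absent from both Dox lists. Of all such regions of the series, 98.4% were absent from both Dox lists, so these counts are near what that share gives. A FOSL2 peak in any Dox library lay within 50 kb of 0 of 7 FOS and JUN genes, beside 19.6% of all protein-coding genes. Beside the same share, such a peak lay near 4 of the 20 partners (ATF7, ELK3, MAP2K1 and MAP2K4) and 3 of the 20 rapidly induced genes (DUSP4, DUSP6 and SGK1).

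H3K27me3 lay on the body or ends of 4 of the 20 partners (ATF3, ELK3, JDP2 and MAP2K4) and 7 of the 20 rapidly induced genes (BTG2, EGR1, EGR2, EGR3, NR4A1, SGK1 and ZFP36) in both libraries, beside 33.3% of all protein-coding genes. H3K9me3 lay on 11 of the 20 partners and on 1 of the 20 rapidly induced genes, SGK1, beside 40.7% of all genes. FOXA1 regions of both WT libraries lay within 50 kb of 17 of the 20 genes in each list, beside 71.6% of all genes. Regions of FOXA1 called in all 4 A-Fos libraries lay near 3 of the partners (ATF7, FBXW7 and MAPK9) and 10 of the 20 rapidly induced genes, beside 14.6% of all genes.

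By the distance over 14 values per gene, 1 from each list and each expressed as a percentile among all protein-coding genes, the genes most like 6 of the members and over 1 Mb away could be named. For FOSB they were PRND at 15.6 percentile points and ARHGAP9 at 18.5. For FOSL1 they were PTGER1 and RREB1, both at 12.4. FOSL2 was nearer to its matches, HSPB1 at 5.55 and CDC6 at 5.69, as was JUN, with FSAF1 at 6.98 and CTNNB1 at 9.54. JUNB had the same 14 values as 2 genes, GTF3C3 and ROMO1, and JUND the same as 9 genes, CYB5R3 and ISG20L2 first in alphabetical order. The values were the number of peaks within 50 kb for FOXA1 and FOSL2 lists and the percent of gene body covered for mark lists. Genes with equal values can therefore differ in peak position, enrichment and mark cover of the window.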

How the data were processed

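FOSL2, FOXA1, H3K9me3 and H3K27me3 were profiled by ChIP-seq in 14 libraries, and the 3 inputs were not analysed here. Fixation was 10 min in 1% formaldehyde and reads were paired, 50 bp each, per the labels' protocols. For each library the deposited list holds peak positions with 2 kinds of value from the authors' caller, the fold enrichment as a linear ratio and the −log10 of the p-value and of the q-value. Peaks were thus called per library and not on pooled replicates. The smallest deposited −log10 q was 1.3 (q of 0.0499). The submitters' processing notes name MACS2, BWA 2.2.1, fastp 0.23.2, deepTools, SAMtools 1.8 and DRAGEN, and the build hg38. The sources used here give neither the order nor the settings of these tools.

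Peaks on chromosomes 1 to 22 and X were used. Regions were made by joining a factor's peaks across its A-Fos lists, or its WT lists, wherever they shared 1 bp or more. Kept regions were called in all 4 A-Fos libraries, lost regions in both without Dox alone and gained regions in both with Dox alone. Gene intervals, strand and promoter sequences came from RefSeq GRCh38.p14. The gene table holds no exons, so exons and introns were not distinguished, and the FOSL1 promoter was not matched. Peaks were compared by exact permutation tests over libraries with Benjamini-Hochberg adjustment over the 7 genes, and other results are counts set beside all protein-coding genes. Percentiles rank a value within its list or among all genes. Scripts used Python 3.11.15, pandas 2.3.3, numpy 2.4.6, SciPy 1.17.1 and matplotlib 3.10.9, and were tested on simulated data.

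The 7 members were always named, as were regions called in both libraries of a group, other genes only where nearest to such a region or on the lists of 20 partners and 20 rapidly induced genes, and the 2 nearest genes by likeness, which are not reported here for FOS. Some peaks called in a lone library, the genes holding or nearest to them and TGACATCA were chosen after their values were seen. The members and lists were chosen with earlier results of these data known. Alternatives were windows of 10 kb and 100 kb, lists of equal length, the 50% of each list with the higher enrichment, 100 bp either side of each summit, 5 kb around gene ends and 10% of the gene body for the marks, each library left out, and a replicate block.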

Additional observations from a re-analysis of the deposited data

How the results depend on the processing

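With 10 kb windows 2 genes had FOSL2 peak numbers apart between Dox and no Dox, in place of 4, and 2 FOSL2 regions near 2 genes were called in both libraries without Dox, both absent with Dox, in place of 6 near 4. With 100 kb windows 11 such regions were found, all 11 absent with Dox. In the upper 50% of each list by enrichment 1 gene was apart and 1 region near 1 gene was called and absent with Dox. With lists of equal length, 3 regions were left in the libraries without Dox, and 0 genes apart and 0 absent regions once all 4 lists had the length of the shortest. Leaving out each library gave 4 to 6 genes apart, 6 to 25 regions called in the libraries without Dox and 6 to 25 absent with Dox. For FOXA1, the region kept in all 4 A-Fos libraries, the region called in both without Dox and the region shared by uninduced A-Fos and WT cells were each 0 with 10 kb windows, equal lists or the upper 50%, 2 with 100 kb windows, and 1 to 2 with a library left out. FOXA1 genes apart numbered 1 in the upper 50%, and 0 to 1 with a library left out, and so did gained FOXA1 regions. Of the 18 WT FOXA1 regions 9 were left with 10 kb windows and 9 in the upper 50%, and leaving out a library gave 19 to 61. The causes were not tested. The counts of members with H3K27me3 (2) and H3K9me3 (0), of FOSL2 regions called in both Dox libraries (0) and of lost FOXA1 regions (0) stayed the same under each alternative run. Neither Dox list held a FOSL2 peak within 50 kb of a member, so only the 100 kb windows could have changed that count. Neither H3K9me3 list covered a member's body or ends, so only the 5 kb windows could have changed the H3K9me3 count. Of 63 counts per gene of absent FOSL2 regions, 45 stayed within 1.5 times and 18 moved.

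Whether the replicate numbers pair the libraries could not be settled. Deviations of same-numbered libraries from their group means correlated at 0.0409 over 16153 genes for FOSL2 and 0.0968 over 10637 genes for FOXA1. The FOSL2 lists with Dox had a mean of only 0.0909 and 0.261 peaks within 50 kb of a gene. With so few peaks and 2 libraries a group, a low correlation cannot exclude pairing. With the numbers taken as a replicate block, 4 genes were apart for FOSL2 and 0 for FOXA1, a mean of 15.5 FOSL2 regions per pair was absent with Dox, 1 FOXA1 region per pair was gained and 0 were lost. With 2 libraries a group and no read counts, peaks below the caller's threshold cannot be told from absent ones.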
